A study of Mus musculus with 15 samples.

Results

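The regions described here were 528 broad islands of H3K4me1 in αTN4 cells that carried many ChIP reads in control cells and had no H3K4me1 island over them in cells depleted of Pax6. They were chosen from the island lists by a minimum of ChIP reads in the control island, which 20.1% of control islands reached and which is stated with the processing, and by the absence of any overlap, of 1 bp or more, with an island of the Pax6 knockdown (KD) list. The control list held 38007 islands, of which 20448 (53.8%) had no KD island, and the KD list held 18417. Of the 7621 control islands that reached the minimum, called read-rich here, 528 (6.93%) had no KD island and 7093 kept one. Because the H3K4me1 lists of both cell lines chose these islands, their H3K4me1 reads, width and fold are given as a description and no test was made on them.

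αTN4 is a mouse lens epithelial line transformed with SV40 T antigen. Control cells carried a control shRNA and KD cells an shRNA against Pax6, both delivered by lentivirus and kept as puromycin-selected stable lines. The study's methods name Pax6 sh2 as the line used for KD ChIP, while the labels give no construct, and each mark was deposited as 1 library for each cell line. Control cells were profiled for H3K4me1, H3K4me2, H3K4me3, RNA polymerase II (Pol2) and Pax6, KD cells for the 3 histone marks, and newborn lenses of CD-1 mice at postnatal day 1 for H3K4me2. The antibody field of the Pax6 and Pol2 libraries named each other's antibody, so these libraries were assigned by title. With 1 library per condition no difference between the cell lines could be tested, and the intervals given are 95% Wilson intervals that cover counting error only. The names of some H3K4me2 peaks mention replicates, and whether libraries were pooled before peak calling is not given in the sources used here.

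H3K4me1 is laid down by the MLL family of methyltransferases and marks enhancers, both active and poised, as well as the flanks of promoters. H3K4me3 marks promoters of active or poised genes, and H3K4me2 is found at both kinds of element. Pax6 is a paired domain and homeodomain transcription factor required for lens formation, and it is known to bind distal enhancers in lens cells. At the starts of the 7 marker genes examined, control cells had H3K4me3, H3K4me2 and Pol2 peaks at Pax6, Cryaa, Cryab, Vim and Prox1 and none of these at Foxe3 and Cdh1, so 2 genes of lens epithelium lacked all of these peaks.

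Pax6 peaks were found in 6 of the 528 islands (1.14%, 0.522 to 2.46%), and the DNA at their summits is shown because these are the islands where loss of the H3K4me1 call coincided with a mapped Pax6 peak. Each run below is 150 bases of the plus strand of mm9 (NCBIM37), 5′ to 3′, round the Pax6 summit. Capitals mark matches on either strand to any of the words searched, which were TTCACGC and GCNTGANTG from the Pax6 paired domain site, TGANTCA from the AP-1 site and GGAAGT from Ets sites.
Chromosome 9 Pax6 peak, chr9:85511088-85511237, between genes: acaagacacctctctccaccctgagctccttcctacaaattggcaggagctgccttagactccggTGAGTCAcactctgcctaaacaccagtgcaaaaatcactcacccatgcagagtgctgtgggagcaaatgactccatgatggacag
Rffl Pax6 peak, chr11:82661070-82661219, intronic: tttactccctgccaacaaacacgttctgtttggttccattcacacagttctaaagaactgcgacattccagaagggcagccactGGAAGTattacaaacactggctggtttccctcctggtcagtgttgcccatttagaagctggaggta
Chromosome 5 Pax6 peak, chr5:5496494-5496643, between genes: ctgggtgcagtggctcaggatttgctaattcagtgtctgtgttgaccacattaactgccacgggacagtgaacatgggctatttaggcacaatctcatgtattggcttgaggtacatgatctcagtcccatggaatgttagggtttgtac
Chromosome 8 Pax6 peak, chr8:129048529-129048678, between genes: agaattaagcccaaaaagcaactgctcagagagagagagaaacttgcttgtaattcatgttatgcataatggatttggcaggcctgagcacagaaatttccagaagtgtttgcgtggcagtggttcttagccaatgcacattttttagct
Zfp503 Pax6 peak, chr14:22810490-22810639, between genes: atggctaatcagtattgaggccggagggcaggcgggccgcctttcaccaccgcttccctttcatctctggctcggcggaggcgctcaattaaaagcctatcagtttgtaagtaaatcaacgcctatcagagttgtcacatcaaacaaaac
Pip4k2a Pax6 peak, chr2:18914937-18915086, intronic: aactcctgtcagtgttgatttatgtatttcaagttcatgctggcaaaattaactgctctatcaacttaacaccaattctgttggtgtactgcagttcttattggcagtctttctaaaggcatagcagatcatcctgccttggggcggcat
The window on chromosome 9 held the AP-1 word and the window in Rffl the Ets word, while neither paired domain word was found in any of the 6 windows.

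The second set shows 200 bases round the strongest control H3K4me2 summit of 5 further islands. The first 2 are islands whose H3K4me2 peaks were all without a KD peak, the third has the H3K4me3 peak of highest fold, and the last 2 belong to islands in or beside genes of the lists described further on. All were read from the plus strand of mm9, 5′ to 3′, and none held any of the words, so they carry no capitals.
Dnm2 H3K4me2 peak, chr9:21300970-21301169, intronic: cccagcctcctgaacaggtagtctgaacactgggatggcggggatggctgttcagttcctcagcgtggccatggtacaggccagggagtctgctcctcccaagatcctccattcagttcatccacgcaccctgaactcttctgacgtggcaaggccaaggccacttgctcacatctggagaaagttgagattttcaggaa
Tbc1d1-side H3K4me2 peak, chr5:64773951-64774150, between genes: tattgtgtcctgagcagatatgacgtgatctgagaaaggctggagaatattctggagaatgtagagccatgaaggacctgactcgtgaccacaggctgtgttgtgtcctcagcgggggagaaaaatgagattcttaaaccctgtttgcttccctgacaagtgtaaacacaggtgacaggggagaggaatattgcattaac
Tmem30a H3K4me2 peak, chr9:79640097-79640296, intronic: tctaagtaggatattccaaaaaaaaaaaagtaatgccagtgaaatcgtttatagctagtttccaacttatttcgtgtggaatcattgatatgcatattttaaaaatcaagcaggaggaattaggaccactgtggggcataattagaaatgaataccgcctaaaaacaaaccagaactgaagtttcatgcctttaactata
Itgb1 H3K4me2 peak, chr8:131224640-131224839, intronic: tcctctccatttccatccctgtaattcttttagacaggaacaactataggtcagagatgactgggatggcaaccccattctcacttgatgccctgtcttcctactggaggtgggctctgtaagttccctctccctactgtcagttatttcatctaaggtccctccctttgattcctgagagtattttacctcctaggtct
Orai3 H3K4me2 peak, chr7:134913926-134914125, intronic: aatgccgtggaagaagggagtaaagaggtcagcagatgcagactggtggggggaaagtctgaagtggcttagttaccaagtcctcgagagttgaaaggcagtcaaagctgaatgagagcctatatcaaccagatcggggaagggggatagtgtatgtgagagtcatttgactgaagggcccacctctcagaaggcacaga
Over the 496 islands with a control H3K4me2 peak, 200-base windows at the strongest summit held TTCACGC in 5 (1.01%, 0.431 to 2.34%) and GCNTGANTG in 14 (2.82%, 1.69 to 4.68%). TGANTCA was found in 39 windows (7.86%) and GGAAGT in 63 (12.7%). The same windows of the 6860 read-rich islands that kept a KD island held the 4 words in 0.525%, 2.29%, 6.84% and 12.5%, all inside the intervals of the lost islands. Windows of the same length at the summits of the 504 Pax6 peaks of control cells held TTCACGC in 4.37% and GCNTGANTG in 12.5%. GCNTGANTG and TGANTCA share the letters TGANT, and a match describes the letters, not a bound site.

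The read minimum favours wide islands, and lost and retained read-rich islands were both wider than all control islands, whose median was 3200 bp. The lost islands lay close to the read minimum. Their ChIP reads reached 519 with a median of 127, against 164 in the read-rich islands that kept a KD island. Their width ran from 200 to 23800 bp with a median of 6600 bp, close to the 6800 bp of the retained islands, so that their density was lower, at 19.6 against 25 ChIP reads per kb. Input reads, which come from sheared chromatin without antibody, had a median of 11.9 per kb under the lost islands and 13.9 per kb under the retained ones. The fold over input, which the SICER island caller scales by library size, had medians of 3.44 (1.19 to 13.0) and 3.93. Retained islands weighted to the ChIP density and width of the lost ones had medians of 3.29 in fold and 13.4 input reads per kb.

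The share of read-rich islands without a KD island fell from 15.7% (197 of 1254) from the minimum to 119 reads to 11.1% (231 of 2087) at 120 to 149 reads and 3.86% (72 of 1865) at 150 to 199 reads. It was 1.27% (18 of 1413) at 200 to 299 reads and 0.998% (10 of 1002, 0.543 to 1.83%) from 300 reads upward. Across the threshold, the 48 lost islands at the minimum or 1 read above it had a median fold of 3.19, and the 40 lost islands 1 or 2 reads below it had 3.76. A control H3K4me2 peak lay in 41 of the former and 38 of the latter.

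The share lost was higher at both ends of the range of input. It was 19.6% (100 of 510) under 9 input reads per kb, 9.45% from 9 to 12, 4.25% from 12 to 15 and 3.27% (75 of 2296) from 15 to 20. It was 8.17% from 20 to 25 and 28.4% (46 of 162, 22.01 to 35.8%) from 25 upward. Input reads enter the island call itself, and their part in the loss was not tested.

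**Figure D1:**
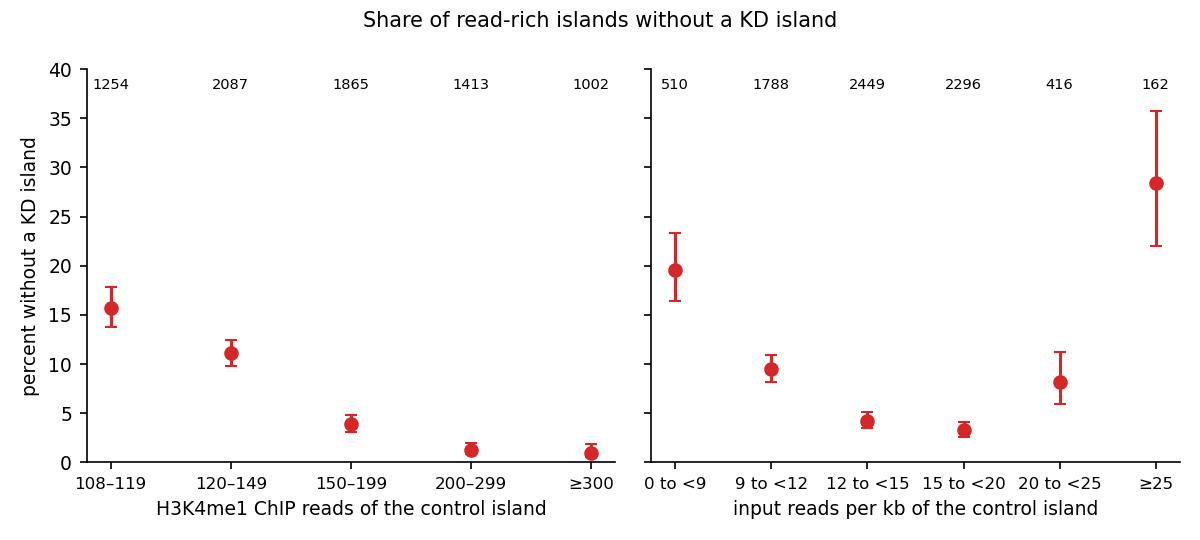
Percent of read-rich control H3K4me1 islands without a KD island (y axis, points, with 95% Wilson intervals as bars) by ChIP reads of the control island (left) and by its input reads per kb (right), with the number of islands in each band above the points. The share falls from 15.7% in the lowest read band to 0.998% in the highest, while over input it is lowest, at 3.27%, from 15 to 20 input reads per kb.

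**Figure D2:**
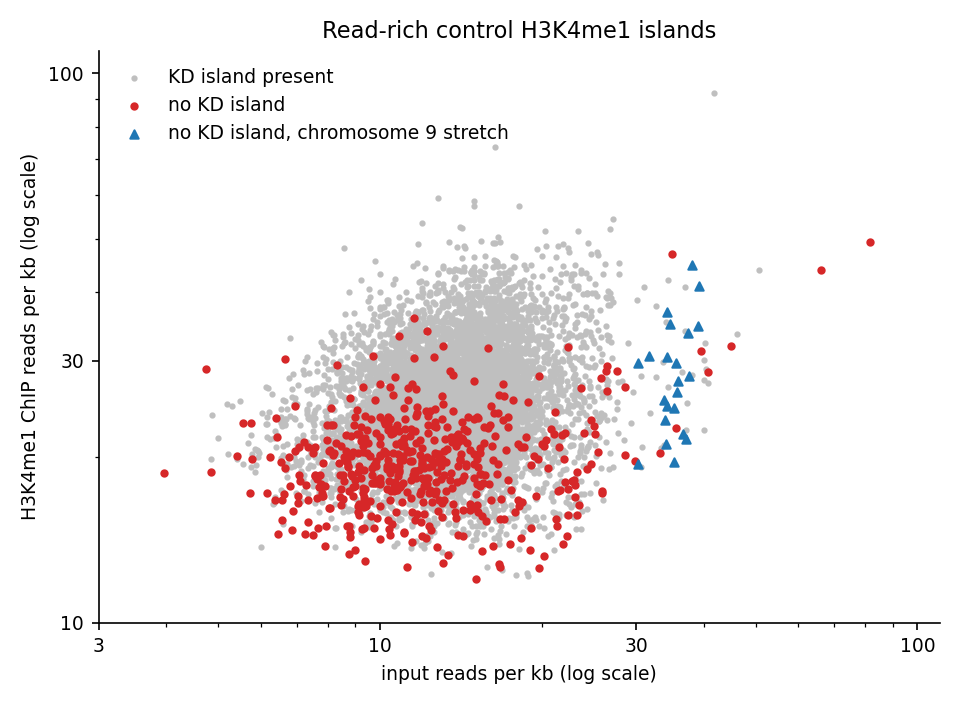
ChIP reads per kb (y axis) against input reads per kb (x axis), both on log scales, for 7607 of the 7621 read-rich control islands: grey points kept a KD island, red points did not, and blue triangles are the lost islands of a stretch of chromosome 9. Islands under 1 kb (6) and islands outside the axes (8) are not drawn. The lost islands lie mostly in the lower part of the ChIP density range, and the blue triangles lie between 30.2 and 39.3 input reads per kb.

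The KD list had fewer reads per kb of island where both lists had an island. Islands shared one to one between the lists and rich in reads (5267 pairs) had a median log2 change, KD over control, of -0.35 in ChIP reads per kb and -0.29 in input reads per kb. Their fold over input changed by -0.46 at the median. This fold is scaled by the ratio of ChIP to input library size, 0.470 in the control list and 0.626 in the KD list. A higher ratio gives a lower fold from the same reads. The part of library depth in the loss was not tested, and depth and knockdown cannot be told apart with 1 library each.

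H3K4me2 was present at most of the lost islands in both cell lines. A control H3K4me2 peak lay in 496 (93.9%, 91.6 to 95.7%) and a KD H3K4me2 peak in 473 (89.6%, 86.7 to 91.9%). Both were present in 472 islands, H3K4me2 was seen in control cells alone in 24, in KD cells alone in 1, and in neither in 31. Thus an H3K4me2 peak was called in KD cells at 473 of the 528 islands where the H3K4me1 island was not. Retained read-rich islands held control H3K4me2 in 96.7% and KD H3K4me2 in 94.7%, and the same islands weighted to the ChIP density and width of the lost ones held them in 90.1% and 85.7%. H3K4me2 peaks covered a median of 27.0% of the length of a lost island in control cells and 21.2% in KD cells, beside 25.4% and 20.1% in the weighted retained islands.

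H3K4me3, the promoter mark, was found in 114 lost islands in control cells (21.6%, 18.3 to 25.3%), and in KD cells in 20.5% (17.2 to 24.1%). In retained read-rich islands the shares were 15.9% (15.04 to 16.7%) and 15.01%, and 15.3% and 14.1% after weighting, all below the intervals of the lost islands. Where the peak had to share at least 200 bp with the island, control H3K4me3 was in 17.4% (14.4 to 20.9%) of lost and 13.1% of retained islands. The mark was called in both cell lines at 101 lost islands, while 13 had it in control cells only and 7 in KD cells only. Pol2 lay in 126 lost islands (23.9%, 20.4 to 27.7%), beside 27.1% of the retained and 17.4% of the weighted retained islands. H3K4me2 of the newborn lens overlapped 239 (45.3%, 41.1 to 49.5%), beside 46.6% and 42.6%.

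Pax6 was the scarcest of these features. Its 6 lost islands made up 1.14%, beside 3.02% (2.64 to 3.44%) of retained read-rich islands and 1.69% of the weighted ones. The interval of the lost islands lay below that of the retained islands before weighting and held the weighted value. Counted the other way, 6 of the 220 read-rich islands with a Pax6 peak had no KD island (2.73%, 1.26 to 5.82%), and 522 of the 7401 without one (7.05%, 6.49 to 7.66%). Over all control islands, 378 of 38007 held a Pax6 peak (0.995%), so few islands of any kind did.

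**Figure D3:**
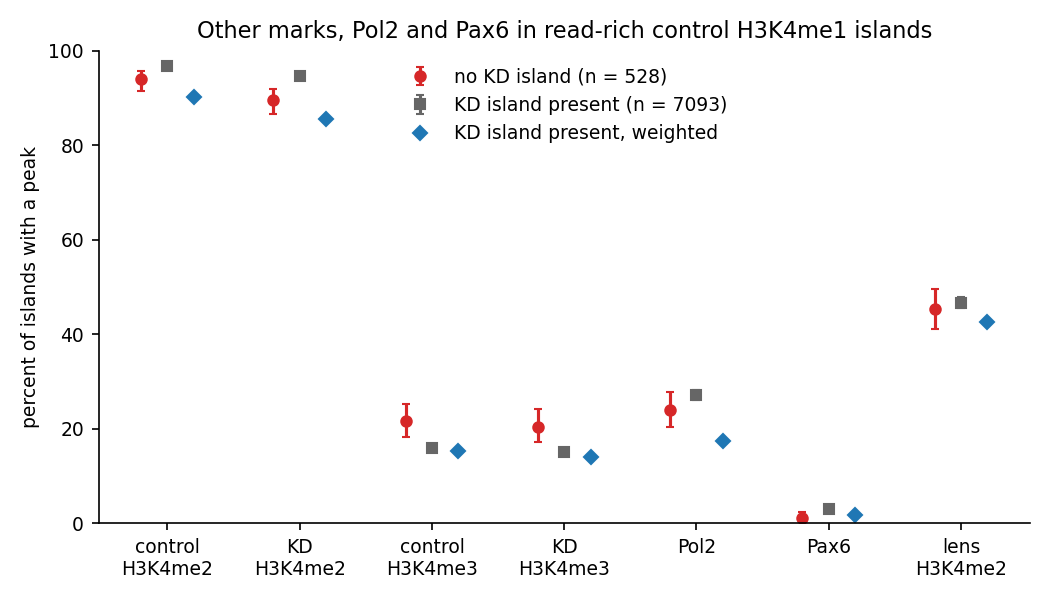
Percent of islands with a peak (y axis) for each mark, Pol2 and Pax6 (x axis) in the 528 read-rich control islands without a KD island (red circles), in the 7093 with one (grey squares) and in the latter weighted to the density and width of the former (blue diamonds). Bars are 95% Wilson intervals and the weighted values carry none; control H3K4me2 stands at 93.9%, 96.7% and 90.1%, and Pax6 at 1.14%, 3.02% and 1.69%.

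Single H3K4me2 peaks inside the lost islands were without a KD peak about as often as those elsewhere. Of 920 control H3K4me2 peaks in the lost islands, 158 had no KD peak (17.2%, 14.9 to 19.7%), beside 16.7% in retained read-rich islands and 17.5% of all 66274 control peaks. Among the 762 that kept a KD peak, the rank of the fold within its own library changed by a median of -2.29 percentile points, against -1.79 in retained islands and -1.85 over all peaks. Loss followed the strength of the peak when all control peaks were split by fold into 4 classes of about equal size. In the lowest class 115 of 232 peaks were without a KD peak (49.6%), in the next 42 of 228 (18.4%), in the third 1 of 249 and in the highest 0 of 211, which allows a share of up to 1.79% by the Wilson interval. For H3K4me3, 18 of 129 peaks had no KD peak (14.0%, 9.01 to 21.0%), beside 12.01% in retained islands and 10.1% of all peaks, and all 18 were among the 43 peaks of the lowest fold class.

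**Figure D4:**
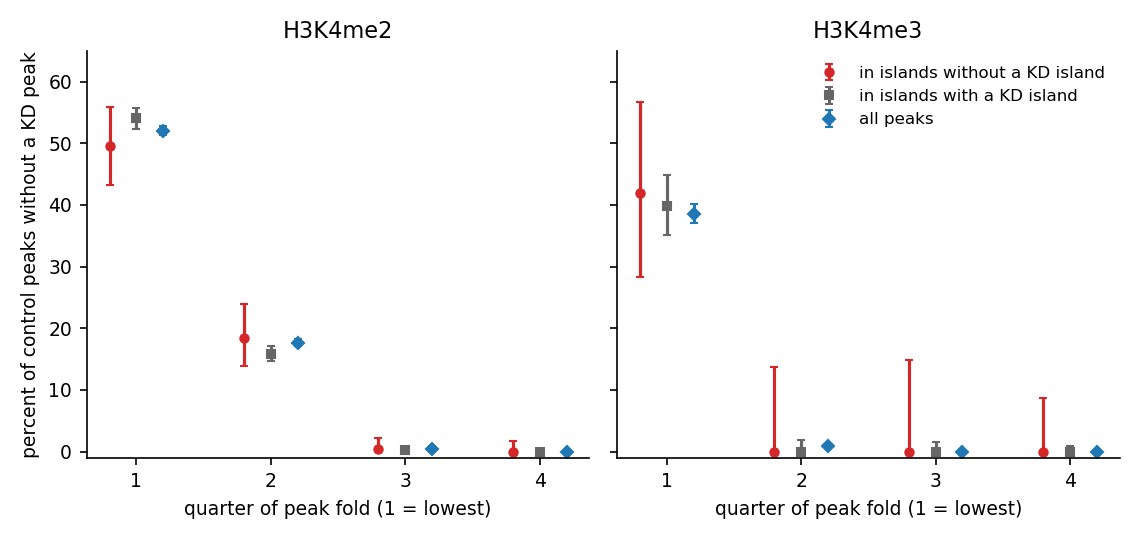
Percent of control H3K4me2 (left) and H3K4me3 (right) peaks without a KD peak (y axis) by class of peak fold over all peaks of the library (x axis, 4 classes of equal size, 1 is the lowest), for peaks in read-rich islands without a KD island (red), in those with one (grey) and for all peaks (blue), with 95% Wilson intervals. In the lowest class of H3K4me2 the 3 sets stand at 49.6%, 54.0% and 52.1%, and in the highest all stand at 0.

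The 528 islands were spread evenly over the classes of position. An island was called promoter where it reached to 2 kb or less from a protein-coding transcript's first base, which held for 174 islands (33.0%, 29.1 to 37.1%), beside 26.9% of retained read-rich islands. Another 175 lay in gene bodies and 179 between genes. The share of read-rich islands without a KD island was 8.35% at promoters, 5.63% in gene bodies and 7.38% between genes. At promoters, H3K4me3 was present at 100 of the 174 lost islands (57.5%) in control cells and at 99 in KD cells, Pol2 at 76 (43.7%) and lens H3K4me2 at 145 (83.3%). Retained promoter islands held control H3K4me3 in 51.5%, inside the interval of the lost ones (50.04 to 64.6%). Pol2 was in 49.97% of the retained promoter islands (47.7 to 52.2%), inside the interval of the lost ones (36.5 to 51.1%), and lens H3K4me2 in 80.8%. In gene bodies H3K4me3 was present at 7 of 175 lost islands (4%, 1.95 to 8.03%), beside 2.62% of retained ones, and lens H3K4me2 at 52 (29.7%, 23.4 to 36.9%), beside 36.7%. None of the 175 held a Pax6 peak, which allows a share of up to 2.15% by the Wilson interval, while 79 of 2936 retained islands in gene bodies did (2.69%). Between genes, H3K4me3 was present at 7 of 179 in control cells (3.91%) and 2 in KD cells (1.12%), beside 2.89% and 2.14% of retained islands. Lens H3K4me2 was present at 42 (23.5%, 17.9 to 30.2%), beside 30.5% of retained islands there, a value just outside that interval. These shares were not weighted for density and width. The median GC content was 45.5%, beside 46.5% in retained and 45.7% in weighted retained islands.

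The nearest island of the KD list, whether or not it overlapped a control island, lay a median of 16 kb away, within 1 kb of 35 lost islands, within 10 kb of 222 and within 100 kb of 451. Neighbouring control islands without a KD island formed 486 runs that held at least 1 of the 528. The median run held 3 islands, 95 runs were a single island, and 30 runs held several of the 528 (72 in all, at most 4 in one). The longest run by islands, 35 of them with 2 of the 528, was chrX:137239201-143363600, where the islands had a median of 8.78 input reads per kb. The next, also of 35 islands, was chr18:42282001-53410200 at 7.73 input reads per kb, and the third, of 34, was chr9:102905801-107507000 at 7.34, each with 1 of the 528.

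The chromosomes differed in how many of their read-rich islands were lost. The share was 31.0% on X (9 of 29), 23.0% on 12 (17 of 74), 22.6% on 18 (12 of 53), 19.9% on 9 (64 of 322), 16.9% on 16 and 15.5% on 8 (45 of 291). The lowest shares were 2.71% on 15 (18 of 664), 2.96% on 3, 3.43% on 17 and 3.83% on 2. Control islands of 12, 16, 18 and X had the lowest median input, 7.92 to 8.64 reads per kb, and those of 15, 3, 17 and 2 the highest, 15 to 15.6. Chromosome 9 had a median of 9.50 over all its control islands and 23.0 under the 64 lost ones. The part of DNA content in these shares was not tested.

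On chromosome 9 a large group of lost islands sat together. The stretch chr9:83638601-86000600 held 42 control islands, 39 of them read-rich, and 22 of the 39 had no KD island (56.4%). Input had a median of 34.9 reads per kb under its control islands and 30.8 (24.3 to 35.7) under its 16 KD islands, so the high input was present in both cell lines. Control and KD islands within 5 Mb on either side had medians of 22.5 and 18.2, and 8 of 70 read-rich islands there were lost. The 22 lost islands had 110 to 515 ChIP reads and 30.2 to 39.3 input reads per kb, and their fold over input was 1.19 to 2.50. H3K4me2 was called at 18 of them in control and at 18 in KD cells, Pol2 at 5 and H3K4me3 at 4. The genes in the stretch whose body held a lost island were Elovl4, an elongase of very long chain fatty acids, Ttk, a kinase of the mitotic spindle checkpoint, Bckdhb, a subunit of the branched-chain ketoacid dehydrogenase, Ibtk, 9330154J02Rik and Tpbg.

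**Figure D5:**
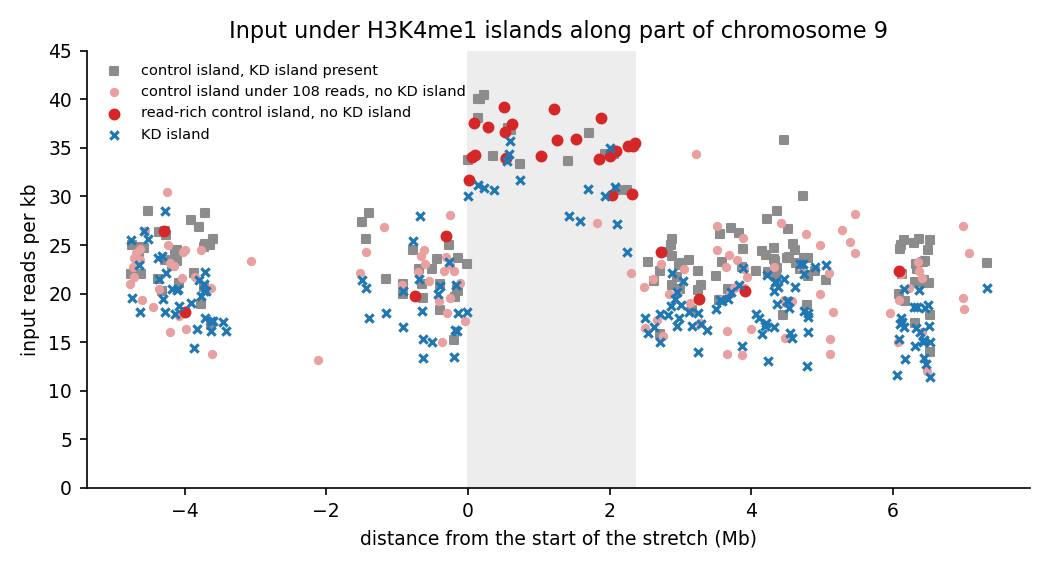
Input reads per kb (y axis) under control H3K4me1 islands (squares and circles) and KD islands (crosses) by distance from the start of the chromosome 9 stretch (x axis, Mb), with the stretch shaded and 5 Mb on either side; 1 island above the axis is not drawn. Red circles, the read-rich control islands without a KD island, number 22 in the shaded stretch and 8 outside it.

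Over the genome, 46 of the 528 islands had at least 25 input reads per kb, a limit chosen after the values were seen, and 27 of these lay on chromosome 9. Their median fold was 1.60, against 3.62 in the other 482, and H3K4me2 was called at 36 of the 46 in control and at 36 in KD cells (78.3%). In the other 482 the shares were 95.4% in control and 90.7% in KD cells, with Pax6 at 5. Retained read-rich islands with at least 25 input reads per kb numbered 116, and their median fold was 1.998. Retained islands under that limit had a median fold of 3.95, so a lower fold at high input was shared by lost and retained islands. H3K4me2 was called at 87.9% of the 116 in control and at 92.2% in KD cells. The narrowest islands of all, of 200 to 600 bp on chromosomes 2, 11 and X, had 765 to 860 input reads per kb. None held an H3K4me2 peak of αTN4 cells. The one on chromosome 2 overlapped a lens H3K4me2 peak of fold 1.28 and a control H3K4me3 peak of fold 1.61, and is counted with those marks.

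The islands with most reads were mostly of this kind. The first, chr17:13739601-13756200 in Tcte2, had 519 ChIP and 657 input reads and a fold of 1.68. The second, chr9:83910201-83934000 in the body of Bckdhb, had 515 ChIP and 884 input reads, a fold of 1.24 and no H3K4me2 peak in either cell line, although the newborn lens had one of fold 7.80. The third, chr13:120275601-120284200 at Gm7120, had 425 and 703 reads and 81.7 input reads per kb. Elovl4 differed in its other marks: the island chr9:83686401-83703000 had 351 ChIP and 566 input reads and a fold of 1.32, yet H3K4me2 had a fold of 21.8 in control and 26.1 in KD cells. Its H3K4me3 peak had a fold of 33.0 in control and 18.1 in KD cells, at percentiles 87.7 and 71.8 of fold in their own libraries. The control Pol2 peak there had a fold of 20.7 and lens H3K4me2 30.3. Thus H3K4me2 and H3K4me3 peaks were called in KD cells while the H3K4me1 island was not. Among the 8 with most reads, 1 island had low input: chr1:158997201-159011800, between genes, had 336 ChIP and 149 input reads, a fold of 4.80, H3K4me2 of fold 17.0 in control and 14.2 in KD cells, and a KD island 3.0 kb away.

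Islands with most reads among those under 25 input reads per kb, and those of highest fold, were added after the values were seen. At Phldb1, a cytoskeletal protein that links microtubules to the cell cortex, the island chr9:44525001-44537800 had 251 ChIP and 84 input reads (fold 6.36), and the nearest KD island was 219.2 kb away. H3K4me2 there had a fold of 13.0 in control and 18.4 in KD cells and lens H3K4me2 28.4. H3K4me3 had a fold of 12.2 in control and 9.11 in KD cells, at percentiles 34.4 and 31.2 of fold in their own libraries. At Runx1, a Runt domain transcription factor, chr16:92777201-92791600 had 241 ChIP reads, 7.36 input reads per kb and a fold of 4.84, with H3K4me2 of 4.71 and 6.60 in control and KD cells. Gcnt2, the enzyme of I-antigen branching whose loss is linked to cataract in people, had chr13:41008601-41021200 at its promoter with 213 ChIP and 144 input reads and H3K4me2 of 14.1 and 16.2. The highest fold of all 528 was 13.0, at chr4:134712601-134716600 in Runx3, another Runt factor, with 116 ChIP and 19 input reads and H3K4me2 of 8.51 in control and 12.2 in KD cells. The next were chr4:139152001-139159800 in Iffo2 (146 and 31 reads, fold 10.0) with H3K4me2 of 12.4 and 12.8, and chr6:145319601-145323800 in Ifltd1 (127 and 28 reads, fold 9.66) with 7.93 and 5.51. Each of these islands held an H3K4me2 peak in KD cells. Of their control H3K4me2 peaks, 1 of 5 at Phldb1, 1 of 3 at Runx1 and 1 of 5 in Iffo2 had no KD peak.

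The 6 islands with Pax6 peaks had H3K4me2 in both cell lines and none lost an H3K4me2 peak. The strongest Pax6 peak by −log10 q, 19.3, lay in chr9:85508401-85513200, 127.0 kb from the start of Ibtk and inside the chromosome 9 stretch, with 215 ChIP and 183 input reads and H3K4me2 of fold 4.13 in control and 7.88 in KD cells. The second, of −log10 q 18.01, lay in an intron of Rffl, which encodes an E3 ubiquitin ligase. Its island chr11:82657201-82662600 had 117 ChIP and 60 input reads and H3K4me2 of 21.6 and 27.4. Another 3 lay at 8.0, 2.6 and 5.0 kb from a KD island: chr5:5494001-5499200 (Pax6 −log10 q 12.1), chr8:129046201-129051800 (10.5) and chr14:22808001-22815400 at Zfp503 (8.58), the gene of a zinc finger repressor. At Zfp503 H3K4me2 had a fold of 18.5 in control and 13.9 in KD cells and lens H3K4me2 26.9. The last, chr2:18912801-18918200 at Pip4k2a, a phosphoinositide kinase, had a Pax6 −log10 q of 6.74, H3K4me2 of 21.6 and 16.8 and H3K4me3 of 39.2 and 20.2. Its H3K4me3 folds stood at percentiles 94.7 in control and 79.4 in KD cells, each within its own library. Thus 5 of the 6 lay within 10 kb of a KD island, and all but the one in the chromosome 9 stretch had fewer than 20 input reads per kb. The mark folds given are of the strongest peak in each island. At Rffl, Zfp503 and Pip4k2a that control H3K4me2 peak did not reach the Pax6 summit.

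In 25 of the 496 islands with control H3K4me2 (5.04%) every control H3K4me2 peak was without a KD peak. Islands with H3K4me2 in control cells and none in KD cells made up 4.55% (3.07 to 6.67%) of all lost islands and 2.55% (181 of 7093) of retained ones, whose ChIP density was higher. The one of highest H3K4me2 fold, 5.52, was chr9:21297601-21303000 in Dnm2, the gene of a dynamin that cuts membrane vesicles, with 159 ChIP and 45 input reads and an H3K4me1 fold of 7.52. It was followed by chr5:64769001-64776200, 82.8 kb from the start of Tbc1d1 (H3K4me2 5.41), and chr8:129196401-129202400, 82.1 kb from that of Irf2bp2 (5.29). The next lay near Zdhhc7 (5.07), at Mto1 (4.98), a mitochondrial tRNA modification enzyme, and 16.3 kb from Phf21a (4.95), a reader of unmethylated H3K4. These H3K4me2 peaks ranked between the 31.1 and 38.1 percentile of fold among all control H3K4me2 peaks, below the middle of the list although they were the strongest of their kind.

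Among the lost islands with H3K4me3, the 6 of highest control fold lay at the promoters of Tmem30a, a flippase subunit, Ctsa with Neurl2, Gsg2 with Itgae, Ppp1ca, the catalytic subunit of protein phosphatase 1, Atp6v1c1, a subunit of the vacuolar proton pump, and Lclat1. Their H3K4me3 fold was 54.8, 46.1, 46.0, 41.5, 41.2 and 40.9 in control and 27.6, 29.5, 29.5, 25.1, 26.3 and 30.5 in KD cells. Within their own library these were ranks of 96.0 to 99.8 in control and 91.5 to 97.9 in KD cells, so the peaks stayed among the strongest of both libraries. Their H3K4me2 fold was 21.7 to 28.1 in control and 21.1 to 32.1 in KD cells, and their H3K4me1 fold was 1.91 to 3.90.

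A lost island lay in the body or within 2 kb of 372 of 22238 protein-coding genes (1.67%). Among lens transcription factor genes it did so for Hsf4, a heat shock factor of lens fibre cells, and it did so for 0 of 16 lens structure genes. Of signalling genes, 1 of 12 of the FGF and MAPK feedback list was marked, Dusp4, a MAP kinase phosphatase, as was 1 of 20 of the Wnt list, Wnt5b, and 0 of 21 of TGF-β and BMP and 0 of 11 of Notch. Of adhesion and cytoskeleton genes it was 2 of 13, Actn1 and Itgb1, and of matrix genes 2 of 13, Col1a2 and Col4a1, while retained read-rich islands lay at 11 and 9 of these. Of H3K4 methylation genes it was 1 of 13, Setd1a, and of genes named by the study 1 of 10, Tshz2. Long genes can hold more islands, and the lists were not tested.

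The island at Itgb1, the integrin β1 subunit, chr8:131216001-131230800, had 222 ChIP and 183 input reads, and H3K4me2 of fold 4.26 in control and 4.86 in KD cells. Col1a2, a chain of type I collagen, had an island 1.2 kb from a KD island, with 184 ChIP and 161 input reads and H3K4me2 of 6.37 and 4.96. The island beside Setd1a, an H3K4 methyltransferase, lay at the promoter of Orai3 (159 and 98 reads) with H3K4me2 of 20.2 and 22.4, H3K4me3 of 24.5 and 16.5 and Pol2 of 29.3. Its H3K4me3 folds stood at percentiles 69.8 in control and 65.3 in KD cells, each within its own library. At Dusp4 the 110 ChIP and 75 input reads went with H3K4me2 of 22.4 and 25.7, and at Wnt5b the 134 and 55 reads went with 16.2 and 17.0. Hsf4 (115 and 47 reads) had H3K4me2 of 20.9 and 17.4 and a control H3K4me3 peak of fold 6.79 without a KD value, and Tshz2 (116 and 62 reads) had 7.40 and 7.38. Each island described in this group had an H3K4me2 peak in KD cells. H3K4me2 folds of control and KD cells, here and above, were not normalised to each other, so they give no direction of change.

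Gene bodies that held several lost islands were few. Of 333 protein-coding genes with a lost island in the body, 12 had more than 1 and 197 had no retained read-rich island. The most, 9, lay in Gm20388 (ENSMUSG00000092329.1, chr8:122434741-126869622), a gene model that also spans 64 retained read-rich islands. Arhgap22, a GTPase activating protein, Slc9a9, an endosomal sodium-proton exchanger, and Rad51l1, a recombination factor, each held 3. Nexn, Fubp1, Acap2 and Sorcs2 followed with 2 each, and of these Nexn, Fubp1 and Acap2 held no retained read-rich island.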

How the data were processed

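ChIP-seq island and peak lists of αTN4 control and Pax6 KD cells and of newborn lens were used as deposited, on mm9. The H3K4me1 lists came from SICER, made by the authors with windows of 200 bp, gaps of 600 bp and a false discovery rate of 0.001. Each island carries deposited read counts for ChIP and for input, a deposited p-value and its corrected value, and the deposited ratio of ChIP to input as fold. The other lists came from MACS2 and hold the authors' fold enrichment, −log10 p and −log10 q and a deposited score. Library totals are not given in the sources used here, so the depth of each library is not known. H3K4me1 reads inside islands summed to 3289553 over 38007 control islands and 1849269 over 18417 KD islands, so these sums also follow island number. The ratio of ChIP to input library size carried by the deposited fold was 0.470 in control and 0.626 in KD cells. Normalisation between the cell lines was not made. No model across genes was fitted, since each condition had 1 library.

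Overlaps (1 bp), distances, GC content and sequence windows were computed with Python 3.11.15, NumPy 2.4.6, pandas 2.3.3 and SciPy 1.17.1, with GENCODE vM1 genes on NCBIM37, and the overlap and weighting steps were tested on simulated data. Retained read-rich islands were weighted to the lost islands over 5 by 5 classes of ChIP density and width. Read-rich islands had at least 108 ChIP reads. The islands and lists were chosen with earlier results of these data known. The islands named are the 8 with most reads, those with Pax6, up to 6 each that lost all H3K4me2 or had the H3K4me3 of highest fold, those at list genes, and the gene bodies with most islands. The alternatives changed the read minimum, overlap, false discovery rate, peak threshold, promoter window and chromosomes. RNA-seq was not used here, and the planned share of repeats could not be computed because the sequence is not soft-masked. The result for 1 list of genes is not reported here in full.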

Additional observations from a re-analysis of the deposited data

How the results depend on the processing

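No paired analysis was possible because each condition had 1 library. Of 115 alternative values, 84 stayed within the interval of the reported value, or within 1.5 times of the reported count, and 31 moved; the cause was not tested. With a minimum of 80 ChIP reads there were 1921 islands (15.5% of read-rich islands) of median width 5200 bp, with control H3K4me2 in 88.5%, KD H3K4me2 in 83.0%, Pol2 in 19.7% and lens H3K4me2 in 40.6%. With a minimum of 150 reads there were 100 (2.34%) of median width 8600 bp, with H3K4me3 in 30%, Pol2 in 31%, 41% at promoters, and 11.1% of their H3K4me2 peaks without a KD peak. With islands of false discovery rate up to 1e-06 only, 769 islands (10.2% of read-rich islands) were lost, beside 528, and their median input was 13.8 reads per kb. With peaks of −log10 q of at least 5 only, KD H3K4me2 was in 86.2%, lens H3K4me2 in 40.7%, and 14.8% of control H3K4me2 peaks had no KD peak. Asking for 200 bp of overlap gave H3K4me3 in 17.4%, and a promoter window of 5 kb gave 38.6% at promoters. In retained islands the weighting gave control H3K4me2 90.1%, KD H3K4me2 85.7%, Pol2 17.4%, Pax6 1.69%, lens H3K4me2 42.6% and promoters 25.5%. It gave 18.1% of their H3K4me2 peaks without a KD peak. Any overlap with a gene body, promoter islands included, was 67.3% after weighting, 65.1% before it and 61.6% in lost islands. Another 3 alternatives were chosen after seeing the data: without chromosome 9 the share lost was 6.36%, and without islands of at least 25 input reads per kb no value moved, and asking for 200 bp of overlap gave H3K4me3 in 13.1% of retained islands. Counting reads limits shares of few islands, and the Pax6 share rests on 6.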
